A study of Homo sapiens with 18 samples.

Results

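Expression of 10 genes of the WNT pathway was followed in subcutaneous tumors of MSTO-211H [sh-YAP1], a human malignant pleural mesothelioma line that carries a short hairpin RNA against YAP1 under doxycycline control. The members were chosen by symbol: 3 ligands (WNT5A, WNT5B and WNT7B), 3 secreted antagonists (DKK1, DKK3 and SFRP1) and 4 nuclear factors or feedback genes (LEF1, TCF7, AXIN2 and NKD2). All 10 were found among the 20555 genes of the table. The study asked how induction of the hairpin alters transcription in established xenografts. RNA of 18 tumors, each from a different SCID mouse, was sequenced after exome capture, and values were expressed as FPKM, that is fragments mapped to a gene, scaled by its length and by all mapped fragments of the tumor.

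Every mouse, controls included, drank water with 5% glucose until its tumor reached about 300 mm3. The 5 tumors labelled 0 h were taken then, before doxycycline. The other tumors were taken after 24 h (n = 4), 96 h (n = 5) or 216 h (n = 4) of doxycycline at 0.5 mg/ml with 5% glucose, as the labels give it. For the last time point the text of the study instead describes doxycycline until 96 h followed by days without it, and the files do not settle which applies, so it is called 216 h here. The construct was introduced with a piggyBac vector and the cells were selected with puromycin, no clone being named, and the inducible promoter is active in the transfected cells only. Mice lacking T and B lymphocytes still supply fibroblasts, vessels and myeloid cells to a tumor. Because the labels give all mice of a time point 1 cage group, effects of cage and of time cannot be told apart.

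WNT proteins are secreted lipid-modified ligands that bind Frizzled receptors together with LRP5 or LRP6, or with receptors such as ROR2. In the canonical branch, binding blocks the destruction complex, beta-catenin accumulates and partners with TCF and LEF factors on DNA, and targets such as AXIN2 and NKD family genes feed back on the pathway. WNT5A and WNT5B act mostly without beta-catenin, and secreted inhibitors of the Dickkopf (DKK) and SFRP families act outside the cell. The Hippo effector YAP1 works through TEAD factors and is known to meet this pathway at several points, DKK1 being among the genes it has been linked to.

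FPKM values summed to between 907662 and 1256546 per tumor, and 13 mitochondrially encoded genes made up 75.5 to 82.9% of that sum on average in a group. Depth is unknown, since no counts were analysed. The number of genes listed at 0 fell in 2 ranges, separated by a gap between 5179 and 5593: all 5 tumors at 0 h lay above it, 2 of 4 at 24 h and 3 of 4 at 216 h did too, and all 5 at 96 h lay below it. The targeted gene YAP1 averaged 7.26 ± 1.96 FPKM at 0 h (SD, n = 5), 5.81 ± 1.61 at 24 h (n = 4), 4.77 ± 1.41 at 96 h (n = 5) and 7.18 ± 1.45 at 216 h (n = 4), and none of the 3 differences from 0 h passed the test (limma, Benjamini-Hochberg adjusted p = 0.742, 0.221 and 0.999). Of the YAP1-TEAD targets, CYR61 (CCN1) averaged 227 ± 19.3 FPKM at 0 h and 207 ± 38.1 at 24 h (limma adjusted p = 0.697). It fell to 170 ± 13.4 at 96 h (adjusted p = 0.0353) and to 125 ± 2.72 at 216 h (adjusted p = 2.47e-05). CTGF (CCN2) averaged 53.5 ± 7.00 FPKM at 0 h, 40.5 ± 14.5 at 24 h (limma adjusted p = 0.505) and 41.4 ± 5.55 at 96 h (adjusted p = 0.437), and fell to 28.0 ± 9.02 at 216 h (adjusted p = 0.00253). Markers of mesothelioma were uneven: at 0 h VIM averaged 1359 FPKM, KRT18 191, KRT8 184, KRT7 4.57, MSLN 4.06 and CALB2 2.45, whereas WT1 was at 0.198 and PDPN was listed at 0 in every tumor.

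Promoter sequences from RefSeq (GRCh38.p14), 250 bases before an annotated start, matched 6 of the 10 members with 9 windows. They are shown for 3 of the members that differed between 216 h and 0 h: DKK1 and TCF7 as the only ones of the 6 with a motif match in these windows, and LEF1 as one without a match in its window. On both strands a search was made for a TCF/LEF core, CTTTG followed by 2 bases that are each A or T. A TEAD core, spelled GGAATG, and the AP-1 site TGACTCA were searched for as well. Of 34943 windows of this length in the RefSeq table, 12.0% held the first, 11.9% the second and 4.22% the third. No match shared bases with another. Capitals mark the matches, and each window reads 5′ to 3′ on the strand of its gene, DKK1 at chr10:52314031-52314280 (plus strand), TCF7 at chr5:134123368-134123617 (plus strand, the second of 2 starts) and LEF1 at chr4:108166302-108166551 (minus strand).
DKK1: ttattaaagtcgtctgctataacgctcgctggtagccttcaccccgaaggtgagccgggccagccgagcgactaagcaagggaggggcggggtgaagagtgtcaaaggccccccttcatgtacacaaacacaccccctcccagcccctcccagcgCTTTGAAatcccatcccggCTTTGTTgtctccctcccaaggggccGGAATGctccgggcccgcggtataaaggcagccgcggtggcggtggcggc
TCF7: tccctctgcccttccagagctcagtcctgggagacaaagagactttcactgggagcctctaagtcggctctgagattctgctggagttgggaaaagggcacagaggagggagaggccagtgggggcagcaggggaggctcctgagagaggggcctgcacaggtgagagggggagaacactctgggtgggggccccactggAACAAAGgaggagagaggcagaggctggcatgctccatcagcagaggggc
LEF1: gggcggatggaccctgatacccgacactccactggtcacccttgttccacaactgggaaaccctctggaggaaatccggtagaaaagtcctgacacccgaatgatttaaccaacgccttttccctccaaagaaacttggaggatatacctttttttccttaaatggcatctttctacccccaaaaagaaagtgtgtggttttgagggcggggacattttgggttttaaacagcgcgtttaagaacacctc
In the DKK1 window CTTTGAA began 95 bases, CTTTGTT 76 bases and GGAATG 50 bases before the start. In the TCF7 window AACAAAG, the reverse complement of CTTTGTT, began 50 bases before the start. A match describes letters and not a bound site. The TCF7 and LEF1 windows shown lay inside their genes. The bases before the 5′ end of LEF1, at 108168956 on its chromosome, were not searched, so the absence of a match holds for the window shown only.

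The genes stood at very different levels, compared here per length as mean FPKM at 0 h. DKK3 (56.7) and DKK1 (39.4) were highest, with overlapping tumors. WNT5A (6.13), WNT7B (4.83) and TCF7 (3.90) followed, then WNT5B (2.15) and SFRP1 (1.63), and each neighbor in these runs overlapped the next. LEF1 (0.733), AXIN2 (0.634) and NKD2 (0.120) were low, and here too neighbors overlapped. A gene was tested where it reached 1 FPKM in at least 4 tumors, which 8 members did. AXIN2 reached it in 3 tumors and NKD2 in none. LEF1 did so in 12 of 18 tumors, 1 of them at 0 h, so that its entry in the test rested mainly on treated tumors. Changes are given as differences of log2(FPKM + 1), which understates the change of low genes, and adjusted p-values come from limma with Benjamini-Hochberg adjustment over all 11379 tested genes. The comparisons with 0 h share the same 5 control tumors.

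**Figure D1:**
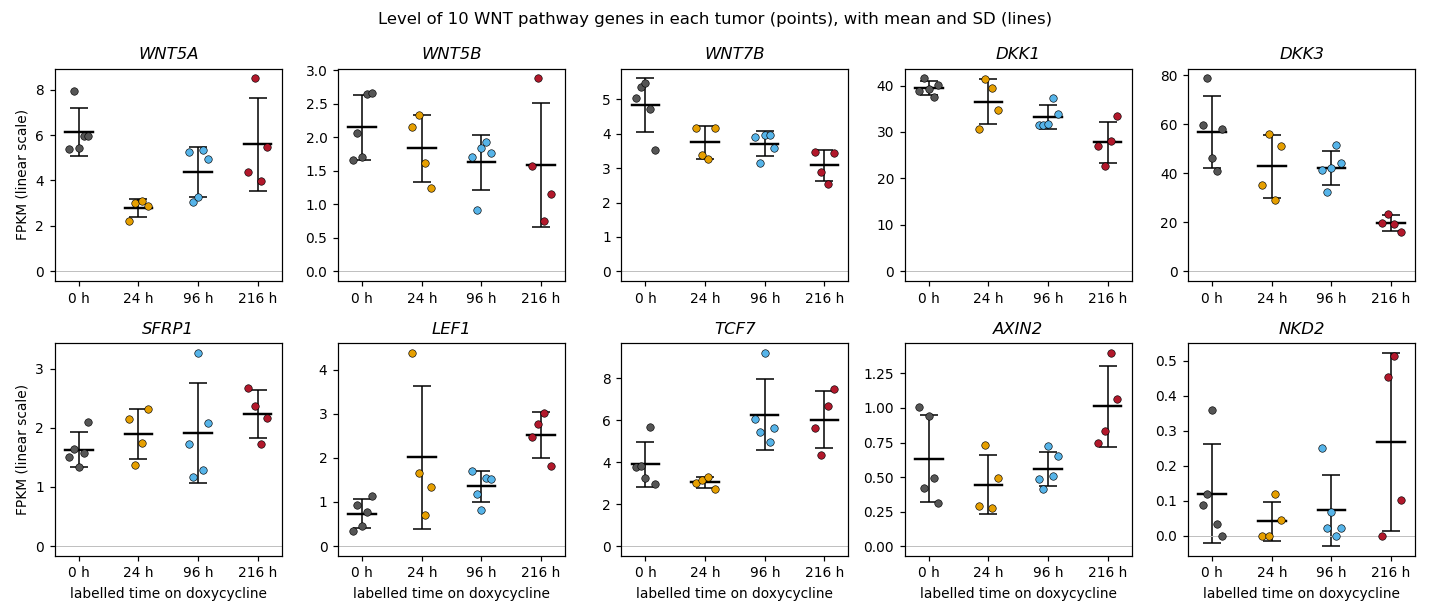
FPKM of each member on a linear axis in every tumor (points) at the 4 labelled times, with group mean (thick bar) and SD (whiskers); n = 5, 4, 5 and 4 tumors. DKK3 at 216 h lay between 15.9 and 23.5 FPKM, under all tumors of the other groups, while WNT5A was lowest at 24 h, between 2.20 and 3.10 FPKM.

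At 24 h no member passed the test by limma, against 0.158% of all genes (0.00879% higher and 0.149% lower), and 3 of the 8 had an unadjusted p under 0.05 against 9.20% of all genes. At 96 h no member passed either, against 1.38% of all genes, with 4 of 8 at an unadjusted p under 0.05 against 13.1%. At 216 h 5 of 8 members differed from 0 h, against 23.3% of all genes. LEF1 and TCF7 were higher, where 19.7% of all genes were, and WNT7B, DKK1 and DKK3 were lower, where 3.6% of all genes were. Between 216 h and 96 h DKK3 alone passed, as a lower value, where 0.747% of all genes were lower and 10.3% higher. The median log2 fold change over the 8 members was -0.21 at 24 h, -0.25 at 96 h and -0.24 at 216 h, against -0.04, 0.02 and 0.17 over all genes. Of the genes that differed at 216 h from 0 h, 84.6% were higher as deposited, but 51.4% after quantile normalization and 43.8% after scaling every tumor to the same median. The median of all genes was 0.17 above that at 0 h and 0.16 above that at 96 h. It was -0.04 in both comparisons with the median scaling and -0.03 with quantiles.

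**Figure D2:**
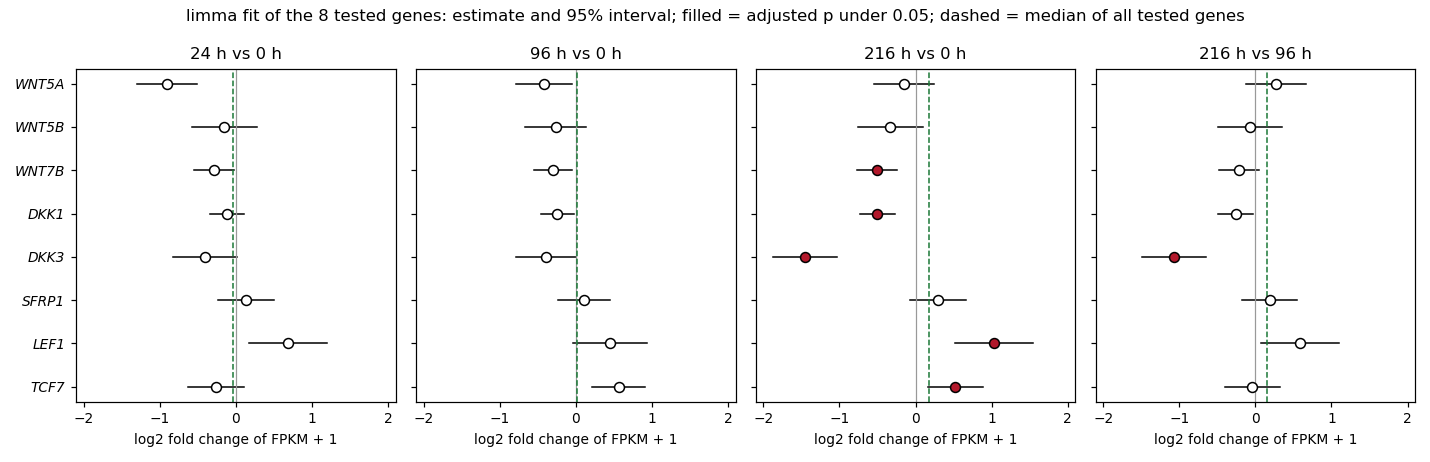
Difference of mean log2(FPKM + 1) for the 8 tested members in 4 comparisons (limma estimate and 95% interval; filled points have an adjusted p under 0.05), with the median of all 11379 tested genes dashed. The 5 filled points at 216 h against 0 h run from DKK3 at -1.46 to LEF1 at 1.03, and DKK3 at -1.06 is the only one at 216 h against 96 h.

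WNT5A (chr3:55465715-55489945, GRCh38, as the table gives it), a ligand that signals mainly through ROR and Frizzled receptors without beta-catenin, was low in every tumor at 24 h. Its levels at 0 h were 5.41, 7.93, 5.42, 5.95 and 5.96 FPKM. At 24 h they were 2.20, 2.99, 3.10 and 2.90 FPKM. At 96 h they were 5.24, 3.06, 3.30, 5.36 and 4.94 FPKM, and at 216 h 4.39, 8.50, 3.98 and 5.47 FPKM. All 4 tumors at 24 h lay under the lowest at 0 h, as did all 5 at 96 h, a separation downward that 2.33% and 2.59% of all genes had, while 0.466% and 1.6% had one upward, whereas at 216 h 2 tumors lay under the controls, 1 among them and 1 above. The mean at 24 h, 2.80 ± 0.405 FPKM (SD, n = 4), stood at a ratio of 0.456 to that at 0 h, 6.13 ± 1.04 (n = 5). The log2 difference was -0.91 (SE 0.19, 95% interval -1.29 to -0.52), and at an adjusted p of 0.0533 by limma it did not pass. It passed with a floor of 5 FPKM (adjusted p = 0.0401) and with a pseudocount of 0.1 (adjusted p = 0.0495), over a range of 0.0401 to 0.180 in the 9 alternatives, and it was 0.0778 to 0.158 when any 1 tumor was left out. Both tumors at 24 h with more genes at 0 and both with fewer lay in this low range. Later differences were smaller, at -0.42 (adjusted p = 0.300) for 96 h and -0.15 (adjusted p = 0.597) for 216 h.

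WNT5B, a close relative of WNT5A, did not follow the same course. Its levels were 1.66, 2.06, 1.70, 2.65 and 2.66 FPKM at 0 h and 2.16, 2.33, 1.61 and 1.24 at 24 h. They were 1.70, 0.913, 1.84, 1.93 and 1.77 FPKM at 96 h and 1.58, 2.88, 0.748 and 1.15 at 216 h. All groups overlapped, and the 216 h tumors held both the highest and the lowest value of the 18. No difference from 0 h passed limma's test, with log2 differences of -0.15, -0.26 and -0.33 (adjusted p = 0.876, 0.614 and 0.252). The last rested on single tumors: it was -0.55 without tumor 2 at 216 h, the high one (adjusted p = 0.0438), and -0.16 without tumor 3, the low one (adjusted p = 0.620).

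WNT7B (chr22:45920362-45977129), a ligand usually tied to beta-catenin signaling, fell at 216 h. At 0 h it stood at 5.05, 5.37, 5.48, 4.71 and 3.53 FPKM, and at 24 h at 4.18, 3.37, 3.28 and 4.16. At 96 h it stood at 3.92, 3.15, 3.96, 3.96 and 3.58 FPKM, and at 216 h at 3.46, 2.88, 2.55 and 3.45. All 4 tumors at 216 h lay below all 5 at 0 h, as in 2.94% of all genes, although the highest missed the lowest control only narrowly, while the 24 h and 96 h tumors overlapped the controls. The mean fell by 36.1%, from 4.83 ± 0.784 to 3.08 ± 0.449 FPKM (log2 difference -0.51, SE 0.12, 95% interval -0.77 to -0.25, limma adjusted p = 0.00651). Relative to the median of all genes the difference was -0.68. The differences were already -0.29 at 24 h (adjusted p = 0.480) and -0.30 at 96 h (adjusted p = 0.262), and -0.21 between 216 h and 96 h (adjusted p = 0.297). Among tumors with more genes at 0 only, 3 at 216 h against 5 at 0 h, the difference was -0.55 and the adjusted p 0.0506.

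DKK1 (chr10:52314296-52317657), which blocks canonical signaling by binding LRP5 and LRP6 and whose promoter window held TCF/LEF and TEAD letters, fell at 216 h. It measured 38.7, 41.6, 39.2, 37.5 and 40.1 FPKM at 0 h and 30.6, 41.3, 39.5 and 34.8 at 24 h. At 96 h it measured 31.5, 31.6, 31.7, 37.3 and 34.0 FPKM, and at 216 h 27.1, 22.7, 28.0 and 33.5. The controls were tight, every tumor at 96 h and at 216 h lay below them (as in 2.59% and 2.94% of all genes), and 3 of the 4 at 216 h also lay below all 5 at 96 h. The mean fell by 29.5%, from 39.4 ± 1.53 to 27.8 ± 4.43 FPKM (log2 difference -0.50, SE 0.11, 95% interval -0.73 to -0.27, limma adjusted p = 0.0029), and the difference was -0.67 relative to the median of all genes. At 96 h the difference was -0.24 (adjusted p = 0.304). Against 96 h it was -0.26 (adjusted p = 0.130), and this passed where tumors were put on another scale, with an adjusted p of 0.00874 after quantile normalization, 0.00904 after median scaling and 0.0193 when rescaled without the mitochondrially encoded genes. These were the only 3 passes among 9 alternatives, over which the adjusted p ran up to 0.496. The difference from 96 h passed in 0 of 9 fits that left out 1 tumor. Among tumors with fewer genes at 0, where 1 tumor stood at 216 h, it was -0.28.

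DKK3 (chr11:11963106-12009769), a divergent member of the same family whose action on WNT signaling is less settled, fell at 216 h from both 0 h and 96 h. At 0 h the tumors measured 59.6, 78.7, 46.3, 40.8 and 58.0 FPKM. At 24 h they measured 35.3, 56.2, 28.96 and 51.2, and at 96 h 41.2, 32.2, 42.2, 51.4 and 44.4 FPKM. At 216 h they measured 19.9, 23.5, 19.4 and 15.9 FPKM, below every other tumor of the series. The mean fell by 65.3% from 0 h, from 56.7 ± 14.6 to 19.7 ± 3.13 FPKM (log2 difference -1.46, SE 0.20, 95% interval -1.88 to -1.04, limma adjusted p = 9.6e-05). It fell by 53.5% from 96 h, where the mean was 42.3 ± 6.88 FPKM (log2 difference -1.06, 95% interval -1.48 to -0.64, adjusted p = 0.00308), a downward separation seen in 1.34% of all genes. Relative to the median of all genes the differences were -1.63 and -1.22. The difference from 96 h was -1.14 with an adjusted p of 0.0672 once the number of genes at 0 was a covariate, and -1.04 with an adjusted p of 0.172 among tumors with fewer such genes, where 1 tumor stood at 216 h. The differences of 24 h and 96 h from 0 h, -0.41 (adjusted p = 0.557) and -0.39 (adjusted p = 0.385), did not pass.

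SFRP1, a soluble Frizzled-related protein that binds WNT ligands, was low throughout. It measured 1.51, 1.64, 1.33, 1.57 and 2.11 FPKM at 0 h and 2.15, 1.37, 1.74 and 2.32 at 24 h. It measured 1.73, 1.17, 3.27, 1.29 and 2.09 FPKM at 96 h and 2.68, 2.36, 1.73 and 2.16 at 216 h. At 216 h 3 tumors lay above all controls and 1 did not, and the other groups overlapped. No difference passed limma's test, the last from 0 h being 0.29 (95% interval -0.07 to 0.66, adjusted p = 0.235).

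LEF1 (chr4:108047545-108168956), a DNA-binding partner of beta-catenin that is itself a canonical target, rose at 216 h. It measured 0.350, 0.935, 0.466, 0.776 and 1.14 FPKM at 0 h. At 24 h it measured 4.38, 1.65, 0.714 and 1.33 FPKM, at 96 h 1.71, 1.19, 0.809, 1.53 and 1.52, and at 216 h 2.48, 2.77, 3.02 and 1.82. The tumors at 216 h lay above all at 0 h and at 96 h, as did 16% and 13.6% of all genes, whereas those at 24 h were scattered and tumor 1 there was the highest of the series. The mean rose from 0.733 ± 0.326 to 2.52 ± 0.515 FPKM, a ratio of 3.44 (log2 difference 1.03, SE 0.24, 95% interval 0.52 to 1.54, limma adjusted p = 0.00545, and 0.86 relative to the median of all genes). The differences at 24 h (0.68, adjusted p = 0.356) and at 96 h (0.45, adjusted p = 0.431) did not pass, nor did that between 216 h and 96 h (0.58, adjusted p = 0.131), except in a fit of those groups alone (adjusted p = 0.0351). Without tumor 1 at 24 h the first was 0.36 (adjusted p = 0.680).

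TCF7 (chr5:134114711-134151865), the T cell factor 1 gene, another partner of beta-catenin, showed less firm differences. Its levels were 3.79, 3.84, 3.24, 5.68 and 2.96 FPKM at 0 h and 2.99, 3.13, 3.29 and 2.72 at 24 h. At 96 h they were 6.05, 5.43, 9.20, 4.95 and 5.64 FPKM, and at 216 h 5.64, 4.33, 6.66 and 7.50. Tumor 4 at 0 h reached into the range of both later groups, so that 2 of 5 tumors at 96 h and 2 of 4 at 216 h lay above all controls. Its mean of 6.03 ± 1.37 FPKM at 216 h against 3.90 ± 1.06 at 0 h passed (log2 difference 0.52, SE 0.17, 95% interval 0.16 to 0.89, limma adjusted p = 0.0368), and the difference was 0.35 relative to the median of all genes. It was smaller and no longer passed after quantile normalization (0.30, adjusted p = 0.254), after median scaling (0.31, adjusted p = 0.248) and when rescaled without mitochondrially encoded genes (0.42, adjusted p = 0.111). It kept its size but did not pass with no filter (0.52, adjusted p = 0.0633), in a fit of those groups alone (0.52, adjusted p = 0.0796) or among tumors with more genes at 0 (0.54, adjusted p = 0.110). It passed in 2 of 9 fits that left out 1 tumor, namely without tumor 4 at 0 h and without tumor 2 at 216 h. At 96 h the mean was 6.25 ± 1.70 FPKM and the difference of 0.56 did not pass (adjusted p = 0.112), except without tumor 4 at 0 h (adjusted p = 0.0393). T lymphocytes, which these mice lack, express this gene, and their 6 markers together reached at most 0.755 FPKM in any tumor, with CD3D and CD8B listed at 0 in all. Which cells the TCF7 RNA came from was not tested.

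AXIN2 and NKD2, feedback inhibitors that canonical signaling induces, were too low for the test. AXIN2 measured 1.01, 0.418, 0.943, 0.493 and 0.310 FPKM at 0 h, 0.287, 0.729, 0.273 and 0.494 at 24 h, 0.489, 0.415, 0.724, 0.510 and 0.650 at 96 h and 0.743, 0.836, 1.40 and 1.07 at 216 h. The 4 tumors at 216 h exceeded all 5 at 96 h, as in 13.6% of all tested genes, but overlapped those at 0 h. In a fit of all 20555 genes its log2 difference was 0.31 from 0 h (limma adjusted p = 0.172) and 0.36 from 96 h (adjusted p = 0.153). NKD2 ranged from 0 to 0.359 FPKM at 0 h, from 0 to 0.119 at 24 h, from 0 to 0.249 at 96 h and from 0 to 0.513 at 216 h, and every group overlapped the others. In the same fit its difference from 0 h at 216 h was 0.17 (adjusted p = 0.457).

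Of 5 members with a difference at 216 h, 4 kept it however the values were scaled. LEF1 remained higher, and WNT7B, DKK1 and DKK3 lower, with an adjusted p under 0.05 after quantile normalization, median scaling and rescaling without the mitochondrially encoded genes, and also without any 1 of the 9 tumors compared. For DKK3 these 9 fits gave log2 differences between -1.57 and -1.33, for DKK1 between -0.59 and -0.41, for WNT7B between -0.60 and -0.44 and for LEF1 between 0.95 and 1.13.

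**Figure D3:**
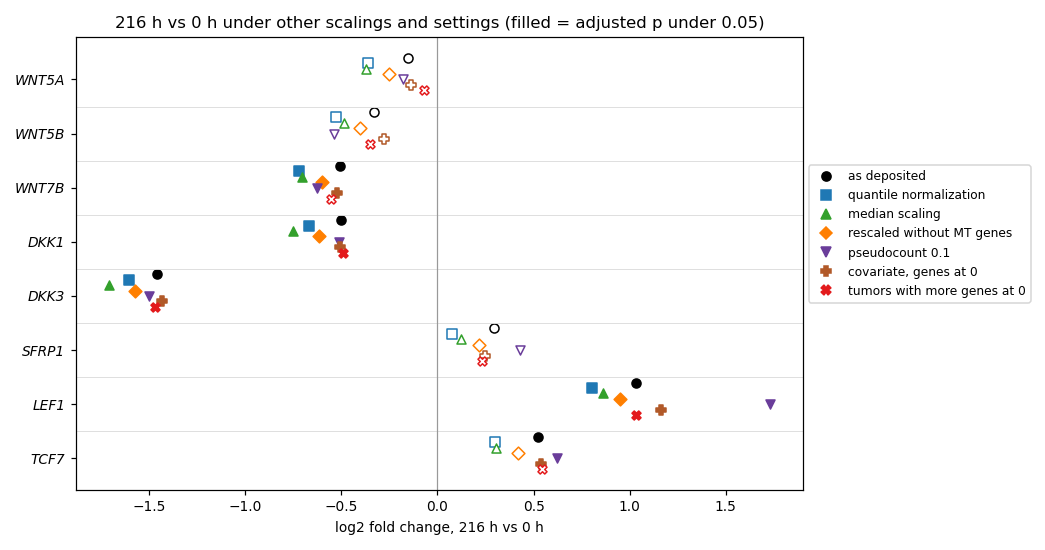
Log2 fold change of 216 h against 0 h for the 8 tested members with values as deposited and in 6 other settings (one symbol each; filled symbols have an adjusted p under 0.05). DKK3, DKK1 and WNT7B stay negative and LEF1 positive in all of them. TCF7 is unfilled after both normalizations, when rescaled without mitochondrially encoded genes and in tumors with more genes at 0. WNT7B is unfilled in tumors with more genes at 0.

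Markers of some cell types that a host can supply moved at 216 h beside these genes. Whether their RNA came from host cells or from the tumor line was not tested. The 10 fibroblast markers summed to 326 to 482 FPKM at 0 h, 202 to 510 at 24 h, 319 to 676 at 96 h and 1089 to 1586 at 216 h. Of these, 9 of 10 were higher at 216 h than at 0 h and also than at 96 h, where 19.7% and 10.3% of all genes were. The collagen gene COL3A1 averaged 166 FPKM at 0 h and 524 at 216 h, and the proteoglycan gene DCN 92.1 and 452. The 12 leukocyte markers summed to 60.1 to 94.2 FPKM at 0 h and 113 to 194 at 216 h. Of the 10 tested 6 were higher and 1 lower, against 19.7% and 3.6% of all genes, CD68 averaging 20.0 and then 14.3 FPKM. Endothelial markers summed to 12.7 to 16.3 FPKM at 0 h and 14.5 to 22.0 at 216 h, with 1 of 6 higher, near the 19.7% of all genes. Skeletal muscle markers summed to 2.56 to 98.5 and 5.72 to 157 FPKM, with 0 of 10 past limma's threshold. Keratinocyte markers summed to 10.8 to 13.2 FPKM at 0 h and 8.88 to 13.7 at 216 h with KRT1, LOR and DSG3 listed at 0 in both, and adipocyte markers to 3.59 to 18.3 and 14.9 to 59.7 FPKM with LEP listed at 0 in both. At 96 h the adipocyte sum was 236 FPKM in tumor 3, against a group median of 8.85. The same tumor held the highest TCF7 and SFRP1 values of that group, and a link was not tested. The keratinocyte sum at 96 h was 29.8 FPKM in tumor 4, against a median of 11.8. Of the fibroblast markers 8 of 10, and of the leukocyte markers 8 of 12, already averaged at least 1 FPKM at 0 h. The mesothelioma markers summed to 1616 to 1930 FPKM at 0 h, 1788 to 2032 at 96 h and 1413 to 1573 at 216 h. At 96 h 1 was higher and 2 lower, against 0.316% and 1.06% of all genes. At 216 h the keratin genes KRT8 and KRT18, 2 of the 6 tested, were lower, against 3.6% of all genes. Most of that sum was VIM, which fibroblasts also express and which averaged 1359 FPKM at 0 h, 1732 at 96 h and 1291 at 216 h. In such bulk values fewer cells of a type and less RNA per cell cannot be told apart, and the part of host cells in the differences of DKK1, DKK3, WNT7B, LEF1 and TCF7 was not tested.

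The rest of the pathway was described with 106 other genes in 8 lists, of which 58 were tested. None passed limma's test at 24 h or 96 h, against 0.158% and 1.38% of all genes. An unadjusted p under 0.05 was reached by 6 and 13 of the 58, against 9.20% and 13.1% of all genes. At 216 h 30 were higher and 2 lower than at 0 h (51.7% higher, against 19.7% of all genes), and 18 were higher and 2 lower than at 96 h. The split moved with the scale: it was 15 higher and 2 lower from 0 h after quantile normalization, 17 and 4 after median scaling and 23 and 2 without the mitochondrially encoded genes. That of all 11379 tested genes moved too, from 2246 higher and 410 lower as deposited to 1037 and 980, 992 and 1274, and 1542 and 722 in these settings. Against 96 h the split of the 58 was 10 and 2, 9 and 2, and 11 and 2 in these settings, and 1 and 0 with the covariate for genes at 0. For all tested genes it was 378 and 314, 321 and 336, 418 and 214, and 43 and 2.

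**Figure D4:**
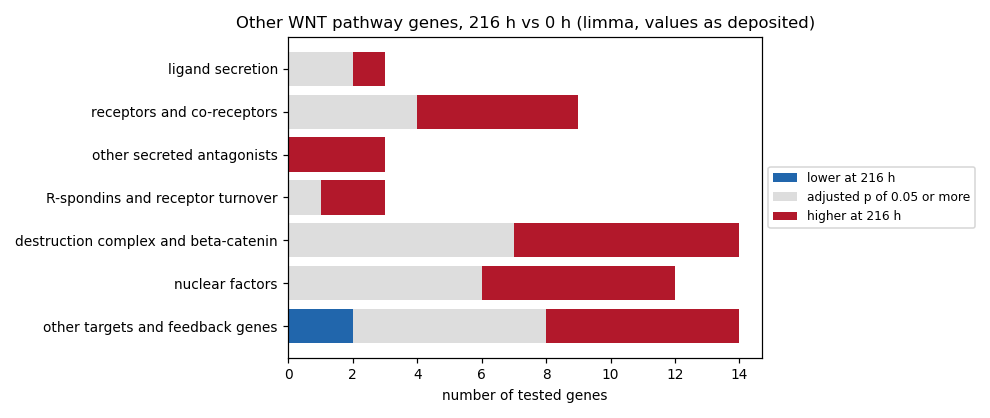
Number of tested genes in 7 lists of other WNT pathway genes (bars), split into those higher, lower or not past an adjusted p of 0.05 at 216 h against 0 h with values as deposited. Between 1 and 7 genes of each list were higher, and the 2 lower ones, CD44 and CCND1, are both in the list of targets. Over all tested genes 19.7% were higher and 3.6% lower.

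None of the 16 other ligands reached the level for testing. WNT9A averaged 0.317 ± 0.131 FPKM at 0 h and 1.14 ± 0.185 at 216 h, and WNT10B 0.105 ± 0.0895 and 0.431 ± 0.468. Of 3 genes for ligand release or inactivation, 1 was higher at 216 h as deposited. It was NOTUM, a secreted enzyme that strips the lipid from WNT proteins (0.60, adjusted p = 0.0165 by limma). After quantile normalization NOTUM did not pass (0.37, adjusted p = 0.130). NOTUM averaged 0.454 ± 0.219 FPKM at 0 h, 0.888 at 24 h, 0.889 at 96 h and 1.21 ± 0.307 at 216 h. Its entry in the test thus rested mainly on treated tumors, where it was higher. The median log2 difference of these 3 genes was 0.51, against 0.17 over all genes, of which 19.7% were higher.

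Receptor genes rose in 5 of 9 cases at 216 h, and none fell, where 19.7% of all genes were higher. Their median log2 difference was 0.49 against 0.17 over all genes. After quantile normalization 3 of 9 were higher and after median scaling 4 of 9, where 1037 and 992 of all 11379 tested genes were. ROR2, a receptor for WNT5A, averaged 0.481 ± 0.126 FPKM at 0 h and 1.72 ± 0.0869 at 216 h (0.88, adjusted p = 5.86e-05 by limma). It averaged 0.292 ± 0.154 FPKM at 24 h and 0.447 ± 0.128 at 96 h. Its entry in the test, and so its place among the 5 of 9, thus rested on the tumors at 216 h, where it was high. FZD1, a Frizzled receptor, rose from 1.57 ± 0.316 to 4.37 ± 0.965 FPKM (1.05, adjusted p = 0.000271), and the co-receptor LRP6, to which DKK1 binds, from 1.86 ± 0.124 to 3.48 ± 0.289 (0.65, adjusted p = 0.000606). These 3 also passed in all 5 other settings tried for the pathway genes.

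The other secreted antagonists rose in 3 of 3 tested cases as deposited, where 19.7% of all genes were higher. They did so in 0 of 3 after quantile normalization or median scaling, where 1037 and 992 of all 11379 tested genes were higher. Their median was 0.90 as deposited, against 0.17 over all genes, while DKK1 and DKK3 fell and SFRP1 did not pass. SFRP2, a soluble Frizzled-related protein, averaged 8.90 ± 3.70 FPKM at 0 h and 28.2 ± 17.4 at 216 h (1.48, limma adjusted p = 0.0175), SFRP4 0.398 ± 0.188 and 1.65 ± 0.649 (0.90, adjusted p = 0.0216) and IGFBP4, a growth factor binding protein that also antagonizes WNT, 17.3 ± 3.16 and 26.2 ± 4.62 (0.57, adjusted p = 0.0392). SFRP4 averaged 0.493 FPKM at 24 h and 0.769 at 96 h, also below 1, so that its entry in the test leaned on tumors at 216 h. SFRP2 and SFRP4 passed in 4 of 6 settings and IGFBP4 in 3 of 6. Of the genes for receptor turnover 2 of 3 rose as deposited and 1 of 3 after either normalization, beside the same all-gene values, with a median of 0.67. The R-spondin receptor LGR4 rose from 1.22 ± 0.318 to 4.84 ± 2.01 FPKM (1.33, limma adjusted p = 0.000404). The DKK1 receptor KREMEN1 rose from 4.64 ± 2.05 to 7.86 ± 2.60 (0.67, adjusted p = 0.0458), in 1 of 6 settings only.

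Within the cell, 7 of 14 genes of the destruction complex list rose as deposited, where 19.7% of all genes were higher. After quantile normalization or median scaling 3 of 14 did, where 1037 and 992 of all 11379 tested genes were higher. The median was 0.39 as deposited, against 0.17 over all genes. CTNNB1, which encodes beta-catenin, rose from 25.0 ± 2.41 to 38.5 ± 2.25 FPKM (0.60, limma adjusted p = 0.000754), and the tankyrase genes TNKS and TNKS2, whose enzymes mark AXIN proteins for degradation, rose by 0.73 (adjusted p = 0.000136) and 0.74 (adjusted p = 0.000429). Nuclear factors rose in 6 of 12 cases as deposited, beside the same 19.7% of all genes, with a median of 0.53. They rose in 5 after quantile normalization and in 4 after median scaling. TLE3, a corepressor that binds TCF and LEF factors in the absence of beta-catenin, rose from 14.5 ± 3.34 to 52.8 ± 12.3 FPKM (1.79, adjusted p = 4.8e-05), and the coactivators BCL9 and PYGO2 rose by 0.76 (adjusted p = 0.00107) and 0.66 (adjusted p = 0.00183). All 6 of these passed in all 6 settings.

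Of 14 other targets 6 rose and 2 fell, where 19.7% of all genes were higher and 3.6% lower. Their median of 0.23 was close to the 0.17 over all genes. The split was 3 and 2 after quantile normalization and 4 and 3 after median scaling. All 11379 tested genes then gave 1037 higher and 980 lower, and 992 and 1274. CCND1, the cyclin D1 gene, fell from 26.2 ± 2.67 to 14.2 ± 2.08 FPKM (-0.84, limma adjusted p = 0.000597), and the adhesion receptor gene CD44 from 238 ± 9.92 to 159 ± 21.4 (-0.58, adjusted p = 0.000473). TCF4, an E-box factor that is not the TCF/LEF gene of the same nickname, rose from 31.4 ± 4.70 to 61.4 ± 5.62 FPKM (0.96, adjusted p = 0.000161).

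Genes with the profile most like each called member were found over the 18 tumors, by Pearson's r of log2(FPKM + 1), as a description in which all points share the 4 groups and their scale. They were AKAP2 (0.914) and PSG5 (0.911) for DKK3, IFI6 (0.891) and MRPL20 (0.865) for DKK1, NFE4 (0.844) and S100A11 (0.834) for WNT7B, C3orf58 (0.874) and ZKSCAN3 (0.861) for LEF1, and CHST11 (0.904) for TCF7.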

How the data were processed

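RNA of 18 tumors, each from 1 mouse, was captured with exome probes and sequenced in pairs. The authors deposited 1 table of 20555 genes, whose values were read as FPKM. STAR and GRCh38 are named in the submitters' processing notes. How fragments were quantified, and whether reads of the mouse were removed, is not given in the sources used here, so that host reads may be among the counted fragments. The 4 blank cells were read as 0, and since 509 genes have values above 0 but below 1e-05 FPKM, a 0 is described as listed at 0. The strand field of the table holds no strand for any gene. No pair of tumors held identical values, and tumors of 1 group correlated at a Pearson's r of 0.97 to 0.991, taken on log2(FPKM + 1) across all 20555 genes.

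Groups came from the labels. Members and gene lists were chosen with earlier results of these data known. One limma model (limma 3.58.1, R 4.3.3; lmFit, eBayes with trend) over all 4 groups was fitted to log2(FPKM + 1). Genes entered it when 4 tumors or more reached 1 FPKM, which 11379 did. Tests were two-sided, with Benjamini-Hochberg adjustment and a threshold of 0.05. It was tested on simulated data. Where a symbol had several rows, the row with the highest mean was used. Named were all members, the 3 genes of each list with the smallest p among those past the threshold (2 of highest mean where none was), and the 2 genes most like each called member, of which 1 is not reported here. WISP1 stands for CCN4. Alternatives were a fit of the compared groups alone, no filter, a floor of 5 FPKM, a pseudocount of 0.1, quantile normalization, median scaling, rescaling without the 13 mitochondrially encoded genes, eBayes without trend, a covariate for genes listed at 0, and each tumor left out. Python 3.11.15, pandas 2.3.3, numpy 2.4.6 and matplotlib 3.10.9 were used.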

Additional observations from a re-analysis of the deposited data

Results flagged for a closer look

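A tumor stood far from the others of its group for 4 of 40 combinations of member and group, where chance gives about 1 in 20, or 2. WNT5A at 0 h was 7.93 FPKM in tumor 2, with the next tumor at 5.96. WNT5B at 96 h was 0.913 FPKM in tumor 2, with the next at 1.70. TCF7 at 96 h was 9.20 FPKM in tumor 3, with the next at 6.05. NKD2 at 96 h was 0.249 FPKM in tumor 1, with the next at 0.0684. DKK3 was also marked because its level at the later time points differed: the log2 difference between 216 h and 96 h was -1.06 (limma adjusted p = 0.00308), a test of the change between these time points themselves.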

How the results depend on the processing

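Most of the differences kept their direction and their side of the threshold: under the alternatives 562 recomputed values did, 8 gained a pass, 16 lost one and 6 turned in direction. The number of members past the threshold was 0 at 24 h and 1, WNT5A, with a floor of 5 FPKM, which leaves 4 members tested, or a pseudocount of 0.1. At 96 h it was 0, and 0 to 1 when 1 tumor was left out. For 216 h against 0 h it was 5, then 3 with the floor of 5 FPKM and 3 in tumors with more genes at 0 (chosen after seeing the data), and 4 to 6 when 1 tumor was left out. For 216 h against 96 h it was 1, then 2 in a fit of those groups alone, after quantile normalization, after median scaling and without the mitochondrially encoded genes, and 0 with the covariate for genes at 0 and in tumors with fewer genes at 0 (chosen after seeing the data). The cause was not tested beyond the smaller number of members or tumors. Direction turned only in differences that had not passed: WNT5B at 24 h to 0.057 in tumors with more genes at 0, SFRP1 at 96 h to -0.087 with the covariate and to between -0.043 (without tumor 3 at 96 h) and 0.201 when 1 tumor was left out, WNT5B at 216 h against 96 h to between -0.286 and 0.098 (without tumor 3 at 216 h), and TCF7 there to between -0.137 and 0.0913 (without tumor 3 at 96 h; 0.0872 without tumor 2 at 216 h). No paired analysis was possible because each mouse belonged to 1 group. Depth is unknown, so low values such as those of NKD2 and AXIN2 have no counting error that can be given.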
